A study of Mus musculus with 16 samples.

Results

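The 7 genes described here encode the kainate receptor subunits (Grik1, Grik2, Grik3, Grik4 and Grik5) and their auxiliary subunits Neto1 and Neto2. They were chosen by name and make up 7 of the 53781 genes that were measured, with 38 of the 135202 annotated isoforms. RNA was sequenced from 16 cultures of primary cortical neurons of wild-type mice, prepared from fetal cortex at embryonic day 15. Cultures received vehicle or 10 µM tianeptine (TIA), an atypical antidepressant, at day in vitro 8. After 24 h they went through 3 h of oxygen–glucose deprivation (OGD), an in vitro model of ischemia, or through a sham procedure, and RNA was taken after 6 h of reoxygenation. The 4 groups of 4 cultures each are CONTROL-VEH (replicates 1 to 4), CONTROL-TIA (5 to 8), OGD-VEH (9 to 12) and OGD-TIA (13 to 16). The labels call the vehicle groups untreated, whereas the study's methods name DMSO as the vehicle. Each library is a bulk culture, and neither the litter nor the preparation day of a culture is given.

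Kainate receptors are tetrameric glutamate-gated cation channels. GluK1, GluK2 and GluK3, from Grik1 to Grik3, can form channels by themselves, whereas GluK4 and GluK5, from Grik4 and Grik5, bind kainate with high affinity and need a partner of the first kind. The receptors act at both sides of the synapse, where they carry slow excitatory currents and tune transmitter release. Neto1 and Neto2 are single-pass membrane proteins that slow the gating of kainate receptors and change their agonist affinity, and Neto1 also associates with NMDA receptors.

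The coding sequence of the pore loop is shown for the 5 subunits because it holds the Q/R site, at which kainate receptor subunits are known for RNA editing. Each stretch spans 45 bases of the GRCm38 coding strand, taken from the GENCODE M21 transcript named, and capitals mark the glutamine codon of that site. In Grik1 and Grik2 transcripts this codon is a known target of A-to-I RNA editing, which was not measured here. The codon lies at chr16:87940542-87940544 (minus strand) for Grik1, chr10:49244329-49244331 (minus strand) for Grik2 and chr4:125691207-125691209 (plus strand) for Grik3. It lies at chr9:42547623-42547625 (minus strand) for Grik4 and chr7:25022497-25022499 (minus strand) for Grik5. The stretch crosses an exon junction in Grik1, Grik2 and Grik3 and lies within a single coding exon in Grik4 and Grik5.
Grik1-202: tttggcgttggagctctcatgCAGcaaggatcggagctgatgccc
Grik2-202: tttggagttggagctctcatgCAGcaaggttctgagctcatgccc
Grik3-201: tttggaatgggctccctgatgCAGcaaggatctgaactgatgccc
Grik4-201: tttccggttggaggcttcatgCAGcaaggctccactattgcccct
Grik5-201: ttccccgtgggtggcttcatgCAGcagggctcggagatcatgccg
Grik1 and Grik2 shared 41 of the 45 bases, and each shared 36 with Grik3. Grik4 and Grik5 shared 31 of 45 with each other, and their identity with Grik1, Grik2 and Grik3 ran from 24 to 32 bases.

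Neto2 has annotated starts at 2 places on chromosome 8, and the deposited isoforms cover both, so the sequence upstream of each is shown. Each stretch holds the 250 bases before a RefSeq start on GRCm38.p6, minus strand, at chr8:85700925-85701174 (distal) and chr8:85691010-85691259 (proximal). The proximal window lies inside the span of the gene, downstream of the distal start. Capitals mark matches on either strand to the GC box GGGCGG and to the NRF1 motif, and these matches do not overlap.
Neto2 distal: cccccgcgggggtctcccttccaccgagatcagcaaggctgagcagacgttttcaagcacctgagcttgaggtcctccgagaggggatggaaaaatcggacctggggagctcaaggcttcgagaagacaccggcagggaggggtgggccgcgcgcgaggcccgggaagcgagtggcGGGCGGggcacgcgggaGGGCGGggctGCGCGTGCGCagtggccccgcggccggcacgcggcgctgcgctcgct
Neto2 proximal: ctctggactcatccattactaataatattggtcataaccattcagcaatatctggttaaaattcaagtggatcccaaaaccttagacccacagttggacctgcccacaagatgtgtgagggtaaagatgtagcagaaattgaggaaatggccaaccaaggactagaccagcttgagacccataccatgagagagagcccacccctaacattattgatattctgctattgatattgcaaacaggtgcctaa
The distal window was 72.0% G and C with 30 CG dinucleotides, and the proximal window was 42.4% with 0. Among 32851 RefSeq promoter windows of the same length the medians were 52.4% and 6. A GC box match is present in 32.7% of all windows, and an NRF1 match in 3.74%. The distal window held 2 GC box matches and 1 NRF1 match, and the proximal window held neither. Of the other members with a window, Grik3 had 6 GC box matches, Grik5 had 2, Grik4 had 1 and Grik2 had 0. None of the 6 member windows matched the cAMP response element TGACGTCA, the AP-1 motif TGANTCA, the E-box CACGTG or the TATA box TATAAA, which 1.55%, 6.75%, 6.02% and 12.4% of all windows hold. These letters are a description of the windows, and no binding was measured.

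All 7 genes were measured above the filter of 0.5 FPKM (fragments per kilobase of transcript and per unit of sequencing depth, a level per length) in every comparison. In CONTROL-VEH cultures, with the isoforms of a gene summed, Grik5 had the highest level at 116 ± 12.6 FPKM (mean ± SD, n = 4), followed by Neto2 at 69.2 ± 10.9. Grik3 stood at 26.5 ± 3.97, Grik2 at 23.9 ± 5.19 and Neto1 at 17.0 ± 1.41. The ranges of Grik3 and Grik2 overlapped, as did those of Grik2 and Neto1, so the order within these pairs was not beyond the spread. Grik1 at 7.67 ± 4.05 and Grik4 at 4.17 ± 0.328 were the lowest, with ranges that did not overlap each other.

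The first place in this order rested on non-coding isoforms. A 455-base processed transcript, Grik5-204, had 45.8 ± 13.6 FPKM in CONTROL-VEH and the protein-coding isoform Grik5-201 had 31.3 ± 3.40. Grik5-202, annotated as a target of nonsense-mediated decay, had 16.9 ± 6.58. In CONTROL-TIA 5 to 8 Grik5-201 was 39.6, 29.2, 23.8 and 22.6, and Grik5-202 was 10.9, 16.8, 23.5 and 26.7. Short reads may not separate these 2 isoforms, so every coding level and share with Grik5 depends on that assignment, which was not tested. Counting the protein-coding isoforms alone, 23 of the 38, Neto2 was highest in CONTROL-VEH at 67.7 ± 11.2, clear of Grik5. Grik5 then overlapped Grik3, and Grik1 at 5.47 ± 2.21 overlapped Grik4. On that measure the high-affinity subunits Grik4 and Grik5 together made up 42.0% ± 4.15 of the summed Grik1 to Grik5 level in CONTROL-VEH, against 67.5% ± 3.95 with all isoforms counted. In OGD-VEH the coding share was 37.0% ± 6.33, in CONTROL-TIA 39.9% ± 9.13 and in OGD-TIA 43.0% ± 7.97, with overlapping ranges. Neto1 made up 19.9% ± 3.50 of the summed Neto level in CONTROL-VEH, 18.5% ± 0.889 in CONTROL-TIA, 20.2% ± 1.13 in OGD-VEH and 17.0% ± 1.72 in OGD-TIA.

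**Figure D1:**
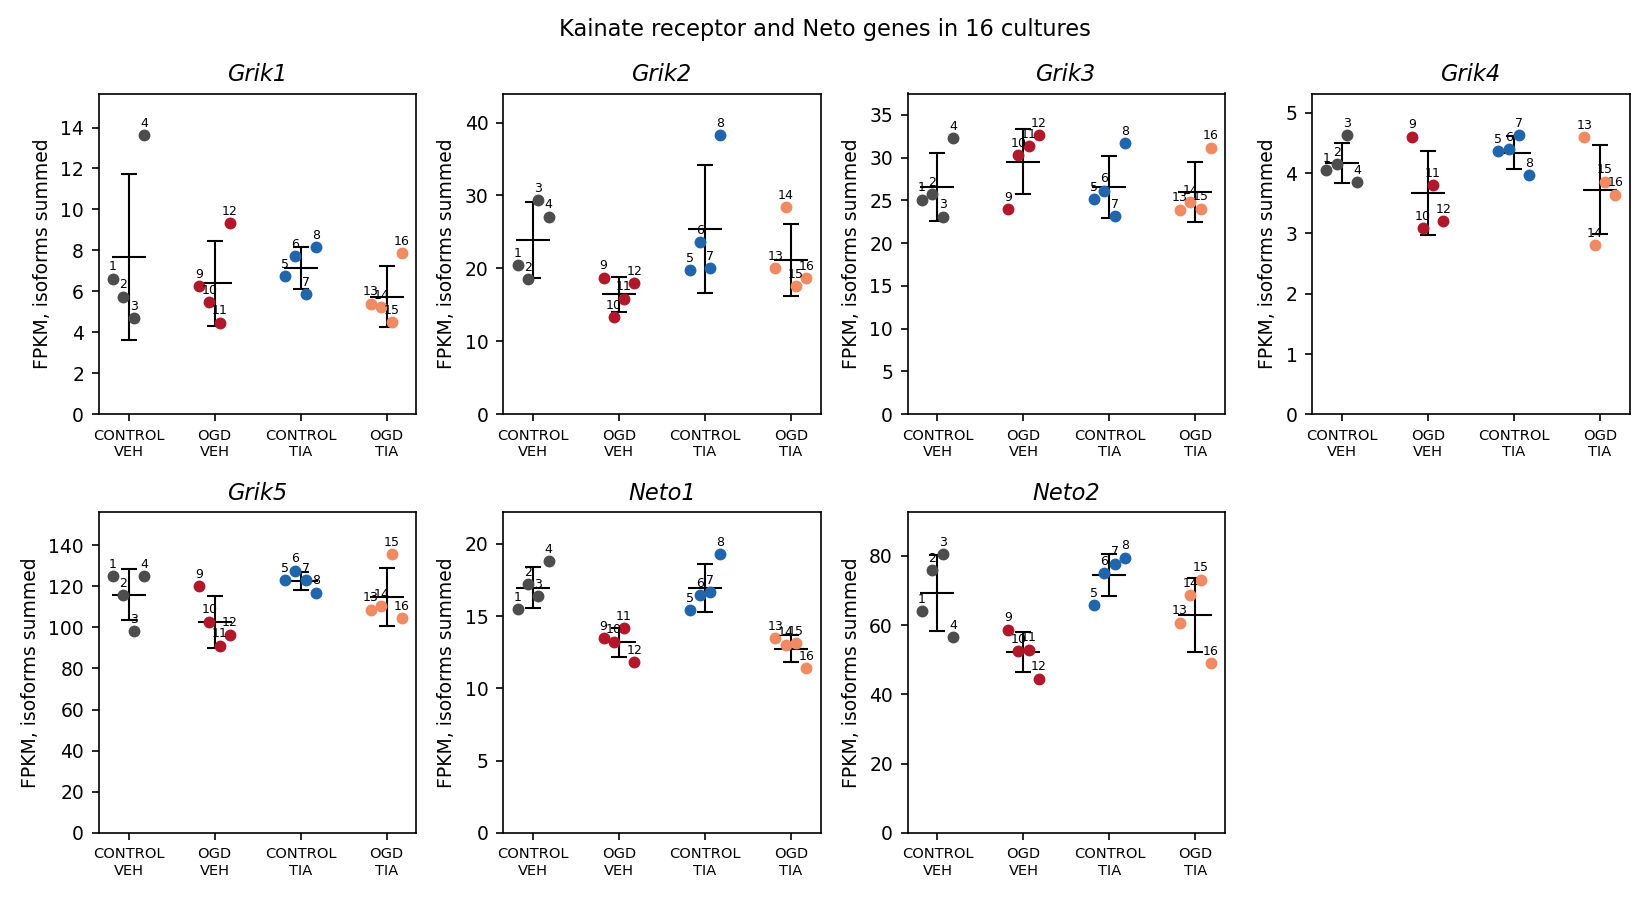
FPKM of each member with isoforms summed (vertical axes, starting at 0) in the 16 cultures by group; points are cultures with their number, and black marks give the mean ± SD of 4. For Neto1 the 8 OGD cultures, at 11.4 to 14.2 FPKM, sit below the 8 others, at 15.4 to 19.3, and for the other 6 genes these ranges overlap.

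The comparison of OGD-VEH with CONTROL-VEH asks what OGD did without tianeptine. None of the 7 members passed the call used here, a padj of at most 0.05 with a log2 difference of at least 1 either way (limma on log2(FPKM + 0.1), Benjamini-Hochberg over 16377 genes). Over all genes tested 4.08% were called. At an unadjusted p below 0.05, 3 members were lower (Neto1, Grik2 and Neto2) and 0 were higher, against 14.8% and 20.2% of all genes. The log2 difference was below 0 for 6 of the 7, as it was for 41.8% of all genes, and the members' median was -0.19 where that of all genes was 0.10. These counts describe 7 genes chosen by name and carry no test as a group. The summed levels of cell type markers in the same libraries are given further below. In bulk RNA fewer cells of a type and less RNA per cell cannot be told apart.

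Neto1 (ENSMUSG00000050321, chromosome 18, 86394952 to 86506718, plus strand), the auxiliary subunit shared with NMDA receptors, has a single isoform in the table. Its FPKM in CONTROL-VEH cultures 1 to 4 was 15.5, 17.2, 16.4 and 18.8. In OGD-VEH cultures 9 to 12 it was 13.5, 13.2, 14.2 and 11.8. The highest of the OGD-VEH values lay under the lowest of the CONTROL-VEH values, as for 9.93% of all genes. The log2 difference was -0.36 (SE 0.12, 95% interval -0.63 to -0.09), or a level 22.2% lower, with padj = 0.0753 (limma). The padj ranged from 0.0186 to 0.168 over 18 alternative settings, and 3 of them brought it to 0.05 or less, while the difference stayed below 0 in each.

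Neto2 (ENSMUSG00000036902, chromosome 8, 85636588 to 85700924, minus strand) is the more abundant auxiliary subunit in these cultures. Its FPKM was 64.0, 75.8, 80.6 and 56.6 in CONTROL-VEH and 58.7, 52.5, 52.9 and 44.5 in OGD-VEH. Only CONTROL-VEH 4 and OGD-VEH 9 made the groups overlap. The log2 difference was -0.40 (SE 0.14, 95% interval -0.73 to -0.07), with padj = 0.0923 (limma). Over the 18 alternatives its padj ranged from 0.0159 to 0.203.

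Grik2 (ENSMUSG00000056073, chromosome 10, 49094833 to 49788766, minus strand) encodes GluK2, the main partner of GluK5 in forebrain receptors. Its summed FPKM was 20.4, 18.6, 29.4 and 27.1 in CONTROL-VEH and 18.7, 13.3, 15.8 and 17.9 in OGD-VEH. The groups touched only where OGD-VEH 9 lay above CONTROL-VEH 2. The log2 difference of -0.52 (SE 0.19, 95% interval -0.94 to -0.09) had padj = 0.0914 (limma), the padj ranging from 0.0287 to 0.210 over the alternatives. Part of the spread came from the 539-base isoform Grik2-206. It reached 11.7 FPKM in CONTROL-VEH 3 and 2.86 in CONTROL-VEH 4, was at most 0.422 in the OGD-VEH cultures, and reached 16.7 in CONTROL-TIA 8 and 11.5 in OGD-TIA 14. When isoforms were weighted by their length, so that short fragments count less, Grik2 was 33.6, 31.3, 30.9 and 40.5 in CONTROL-VEH and 30.7, 22.5, 23.0 and 25.5 in OGD-VEH. On that scale the groups did not overlap, as for 11.4% of genes in this direction, and the log2 difference was -0.42 with padj = 0.0460, a level that 25.1% of genes reached. Neto1 had padj = 0.0380 and Neto2 0.0521 in the same fit, and none of the members had a log2 difference of 1 or more.

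Grik3 (ENSMUSG00000001985, chromosome 4, 125490700 to 125714173, plus strand), whose product GluK3 is a subunit of low glutamate affinity, was the only member with a value above 0 in this comparison. Its FPKM was 25.1, 25.7, 23.1 and 32.3 in CONTROL-VEH and 24.0, 30.2, 31.3 and 32.6 in OGD-VEH. The log2 difference was 0.15 (SE 0.15, 95% interval -0.19 to 0.50; padj = 0.487, limma), so the groups were not told apart. As a share of the protein-coding Grik1 to Grik5 level, Grik3 made up 31.4% ± 4.14 in CONTROL-VEH and 41.9% ± 6.20 in OGD-VEH. The ranges met between the lowest OGD-VEH value, 33.8%, and the highest CONTROL-VEH value, 33.9%. With all isoforms counted, the share was 14.9% (13.86 to 15.98%) in CONTROL-VEH and 18.8% (13.79 to 21.37%) in OGD-VEH. There the lowest OGD-VEH value lay below every CONTROL-VEH value. The coding sum includes the short isoform Grik2-206, at 11.7 FPKM in CONTROL-VEH 3, and depends on the assignment of Grik5 reads to isoforms. The part of either in the Grik3 share was not tested.

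Grik1, Grik4 and Grik5 had overlapping groups and 95% intervals that included 0. Grik1 (ENSMUSG00000022935, chromosome 16, 87895900 to 88290265, minus strand) was 6.63, 5.74, 4.68 and 13.6 FPKM in CONTROL-VEH and 6.25, 5.49, 4.48 and 9.33 in OGD-VEH, with a log2 difference of -0.19 (95% interval -0.98 to 0.61; padj = 0.729, limma). Without CONTROL-VEH 4 the value was 0.13. Grik4 (ENSMUSG00000032017, chromosome 9, 42518135 to 42944493, minus strand) was 4.05, 4.15, 4.63 and 3.85 against 4.61, 3.08, 3.81 and 3.21, a log2 difference of -0.19 (95% interval -0.58 to 0.19; padj = 0.444, limma). Grik5 (ENSMUSG00000003378, chromosome 7, 25009849 to 25072346, minus strand) was 125, 116, 98.2 and 125 against 120.2, 103, 91.2 and 96.4, a log2 difference of -0.18 (95% interval -0.46 to 0.11; padj = 0.336, limma). Its protein-coding isoform Grik5-201 was 31.3 ± 3.40 in CONTROL-VEH and 22.6 ± 5.26 in OGD-VEH (log2 difference -0.49, SE 0.19, padj = 0.219, limma over isoforms). Grik5-202, from which its reads may not be separated, was 16.9 ± 6.58 and 18.0 ± 6.11. For none of the genes was a difference as large as 1 on the log2 scale inside the 95% interval.

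**Figure D2:**
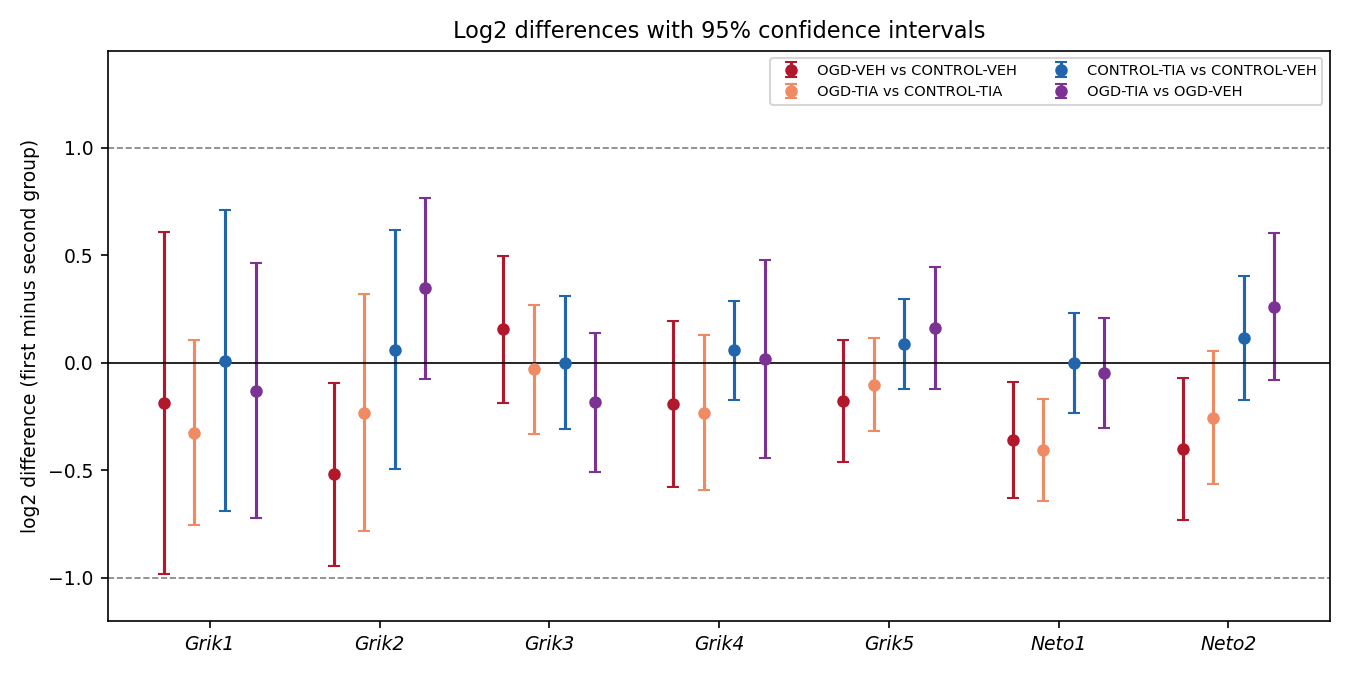
Log2 difference of each member, first minus second group, with its 95% confidence interval (limma; 4 cultures per group) in 4 comparisons; dashed lines mark -1 and 1, the fold threshold. The intervals of Neto1 lie below 0 in both OGD comparisons, and every interval lies between the dashed lines.

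OGD-TIA was compared with CONTROL-TIA to see what OGD did after tianeptine pretreatment. None of the 7 members was called, and 0% of the 16274 genes tested were called in this comparison (limma), where 19.5% had an unadjusted p below 0.05. Neto1 was 15.4, 16.4, 16.7 and 19.3 FPKM in CONTROL-TIA and 13.4, 13.02, 13.1 and 11.4 in OGD-TIA. As with vehicle, the highest OGD culture was below the lowest culture without OGD, as for 6.7% of all genes. The log2 difference was -0.41 (SE 0.10, 95% interval -0.64 to -0.17), with padj = 0.131 (limma). Neto1 was the member with p below 0.05, a level reached in the lower direction by 7.91% of all genes. The comparisons with and without tianeptine share no culture. Whether their cultures share litters or preparations is not given, so the 2 comparisons may not be independent. Over all 16 the OGD and the other cultures of Neto1 were separate, as they were in this direction for 2.4% of 16343 genes.

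The other 6 members had overlapping groups in this comparison. Neto2 was 65.7, 75.1, 77.7 and 79.4 FPKM in CONTROL-TIA and 60.7, 68.7, 73.1 and 49.1 in OGD-TIA, a log2 difference of -0.26 (SE 0.13; padj = 0.326, limma). Grik2 was 19.7, 23.6, 20.0 and 38.2 against 20.1, 28.4, 17.5 and 18.6, with a log2 difference of -0.23 (SE 0.24; padj = 0.607, limma) that came to 0.03 when the culture of highest Gfap was left out of each group. The 7 log2 differences ran from -0.41 (Neto1) to -0.03 (Grik3), and all 7 were below 0, as 44.2% of all genes were.

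With isoforms summed, the comparisons of tianeptine with vehicle and the test of whether tianeptine altered the response to OGD gave no member with an unadjusted p below 0.05. Without OGD, the 7 log2 differences of CONTROL-TIA from CONTROL-VEH ran from -0.0011 (Neto1) to 0.12 (Neto2), and 0% of 16197 genes were called, with 3.85% at an unadjusted p below 0.05 (limma). For Neto1 the 95% interval was -0.23 to 0.23, for Grik3 -0.31 to 0.31 and for Grik1 -0.69 to 0.71, so for Grik1 a difference of 1.5-fold was inside the interval. After OGD, Grik2 had the highest value, a log2 difference of OGD-TIA from OGD-VEH of 0.35 (SE 0.18, 95% interval -0.07 to 0.77; padj = 0.551, limma), followed by Neto2 with 0.26 (SE 0.15, 95% interval -0.08 to 0.60). Neto1 stood at -0.05 (95% interval -0.30 to 0.21). The share of called genes was 0% of 16381, and that with an unadjusted p below 0.05 was 7.9%.

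The interaction, the OGD difference with tianeptine minus that with vehicle, was 0.29 for Grik2 (SE 0.32), 0.15 for Neto2 (SE 0.20), -0.05 for Neto1 (SE 0.14) and -0.18 for Grik3 (SE 0.20), with padj from 0.783 to 0.962 over the 7 members (limma, 16343 genes, 0% at padj of at most 0.05 and 6.06% at an unadjusted p below 0.05). With isoforms weighted by length, Grik2 was 32.2, 33.7, 30.03 and 36.6 FPKM in CONTROL-TIA and 30.3, 32.1, 30.2 and 30.3 in OGD-TIA. On that scale its log2 difference of OGD-TIA from OGD-VEH was 0.28 (SE 0.11, 95% interval 0.041 to 0.53; padj = 0.470, limma), with overlapping groups. Its interaction was then 0.32 (SE 0.15, 95% interval 0.0017 to 0.64; padj = 0.646, limma). Both were below an unadjusted p of 0.05, and neither passed the adjustment. By p on that scale (limma), Grik2 ranked 629 of 16583 genes in OGD-TIA against OGD-VEH and 890 of 16523 in the interaction.

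The isoforms of Neto2 were measured from both starts. The 2 isoforms of the distal start (Neto2-203 and Neto2-205) summed to 22.4, 36.5, 32.7 and 21.9 FPKM in CONTROL-VEH and to 22.9, 22.9, 19.5 and 16.1 in OGD-VEH. The 3 isoforms of the proximal start, led by Neto2-201, summed to 41.6, 39.3, 47.9 and 34.7 and to 35.7, 29.5, 33.4 and 28.4. Both sums were lower on average in OGD-VEH with overlapping groups, and the proximal share of Neto2 was 59.4% ± 5.54 in CONTROL-VEH and 61.1% ± 3.40 in OGD-VEH. In 2 cultures the split was unlike the rest. Neto2-203 was 0.107 FPKM in CONTROL-TIA 6 and 0.345 in OGD-TIA 15, against 6.43 to 24.7 in the other cultures, and Neto2-201 had its highest values there, 56.7 and 56.1. The total of Neto2 in those cultures, 75.1 and 73.1, lay within the range of the others. Short single-end reads do not separate isoforms that share most of their exons, and whether the assignment of reads accounts for these 2 cultures was not tested. Among the 53087 isoforms tested in OGD-VEH against CONTROL-VEH 0.141% were called (limma), none of them from the 7 genes. Of the member isoforms 26 were tested, and at an unadjusted p below 0.05 4 were lower (Grik5-201, Grik5-206, Neto1-201 and Neto2-201, named after their values were seen) and 0 higher, against 19.1% of all isoforms in either direction.

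**Figure D3:**
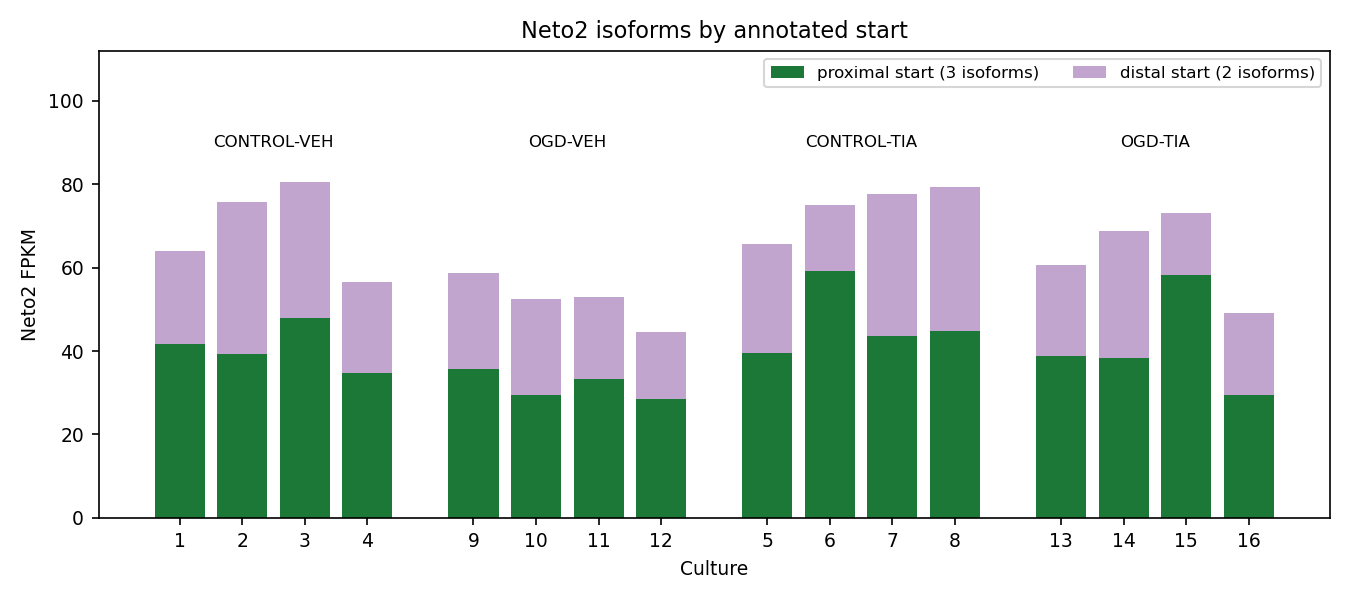
Neto2 FPKM per culture (bars from 0, culture numbers on the horizontal axis), stacked by the annotated start of the isoforms. The distal part is 15.8 in CONTROL-TIA 6 and 15.0 in OGD-TIA 15, where the proximal part is highest at 59.2 and 58.2.

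Cut at the widest gap between its sorted values, Grik3 gave 2 sets of the 16 cultures that crossed the groups. The cut was taken from these same values and any gene would give 2 sets, so it is a description only. In 10 cultures its level was between 23.1 and 26.1 FPKM, in the other 6 between 30.2 and 32.6, and none lay in between. The 6 were CONTROL-VEH 4, CONTROL-TIA 8, OGD-VEH 10, 11 and 12, and OGD-TIA 16. In OGD-TIA the values were 23.9, 24.8, 24.0 and 31.1. Grik1 was also highest of its group in CONTROL-VEH 4 (13.6), CONTROL-TIA 8 (8.15), OGD-VEH 12 (9.33) and OGD-TIA 16 (7.87). Gfap, the intermediate filament of astrocytes, was highest of its group in the same 4 cultures, at 87.4, 15.1, 85.9 and 64.5 FPKM. The summed level of 8 astrocyte markers was 1614 in CONTROL-VEH 4, 2532 in OGD-VEH 12, 1934 in OGD-TIA 16 and 874 in CONTROL-TIA 8, and the other 12 cultures ranged from 657 to 1354. The part of these cells in the Grik1 and Grik3 levels was not tested. Leaving the culture of highest Gfap out of each group, an alternative chosen after seeing the data, left Neto1 at -0.26 (padj = 0.168), Neto2 at -0.42 (padj = 0.104) and Grik2 at -0.49 (padj = 0.188) in OGD-VEH against CONTROL-VEH (limma), with 0 members called.

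**Figure D4:**
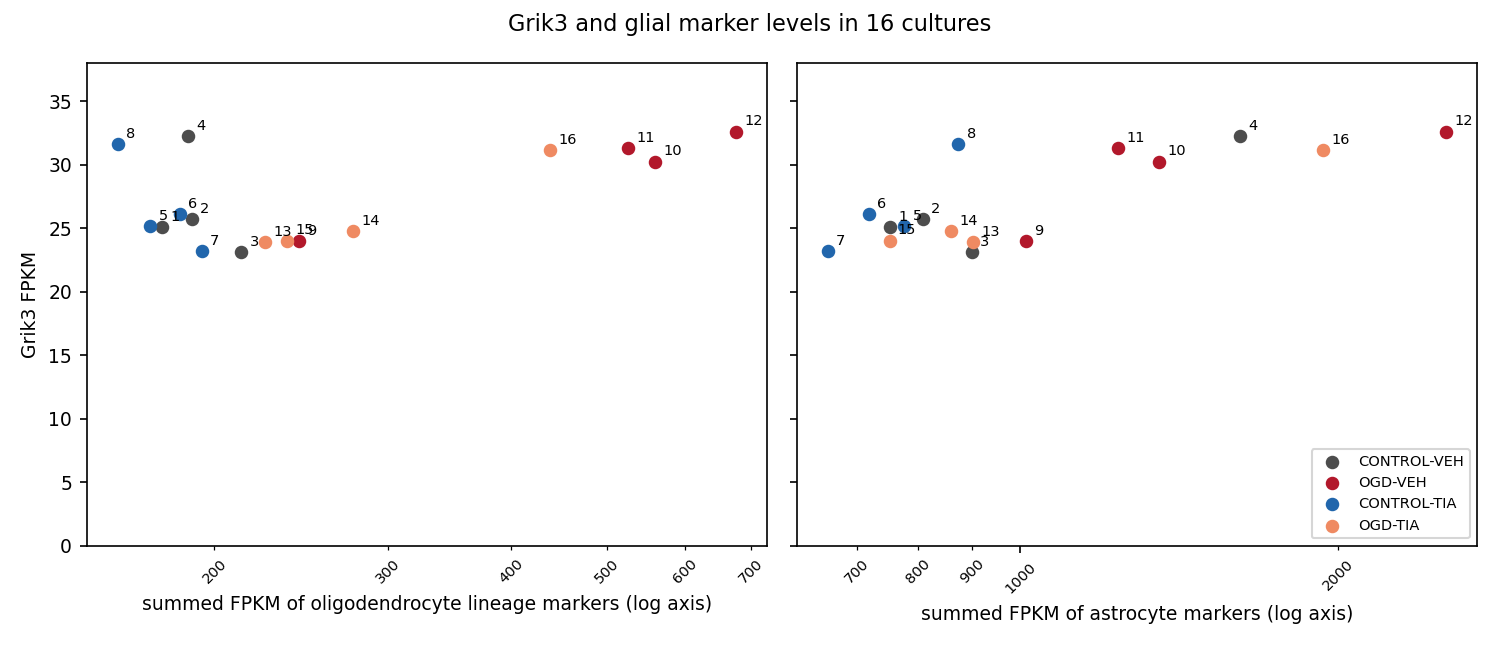
Grik3 FPKM (vertical axis) against the summed FPKM of 8 oligodendrocyte lineage markers (left) and 8 astrocyte markers (right; both horizontal axes logarithmic) in the 16 cultures, numbered and coloured by group. The 6 cultures at 30.2 to 32.6 FPKM include the 4 of highest oligodendrocyte lineage sum (438 to 676) and also CONTROL-VEH 4 and CONTROL-TIA 8 (188 and 159).

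The marker lists show which cells the libraries held. All 7 general neuronal markers were measured, and their summed level was 2789 to 3284 FPKM in CONTROL-VEH, 2828 to 2919 in CONTROL-TIA, 1127 to 2501 in OGD-VEH and 1617 to 2779 in OGD-TIA. The 6 excitatory neuron markers summed to 303 to 355, 337 to 372, 80.5 to 291 and 190 to 338 in the same order. All 10 inhibitory neuron markers were measured, at 473 to 888, 478 to 738, 374 to 538 and 267 to 474. The members of that list did not move together: in OGD-VEH against CONTROL-VEH 3 were higher and 4 lower at an unadjusted p below 0.05. The interneuron transcription factor Dlx1 was 76.8 ± 41.6 FPKM in CONTROL-VEH and 148 ± 54.3 in OGD-VEH, and the neuropeptide Sst was 280 ± 77.8 and 77.8 ± 68.7 (mean ± SD, n = 4 each). The 8 oligodendrocyte lineage markers, of which Mog stayed below 0.5, summed to 177 to 213 and 159 to 194 without OGD and to 244 to 676 and 225 to 438 after it. This list was also mixed: in OGD-VEH against CONTROL-VEH 5 of 7 tested were higher and 1 lower at an unadjusted p below 0.05 (limma). Those shares were 20.2% and 14.8% over all genes. Mbp was 7.18 ± 2.02 FPKM in CONTROL-VEH and 3.81 ± 0.788 in OGD-VEH. The 6 progenitor markers summed to 90.8 to 129, 87.3 to 102, 125 to 366 and 108 to 260. All 8 astrocyte markers were measured, with sums of 753 to 1614, 657 to 874, 1011 to 2532 and 752 to 1934 in the same order of groups. In OGD-VEH against CONTROL-VEH 2 of these 8 were higher and 0 lower at an unadjusted p below 0.05 (limma). Slc1a2 had the lower mean in OGD-VEH, 38.3 ± 16.7 FPKM against 51.8 ± 18.0. Of 8 microglial markers 1 had a mean of 0.5 FPKM or more, with sums of at most 3.13, and of 5 endothelial markers 0 did. Neto1 and Neto2 were both lowest of their group in OGD-VEH 12 and OGD-TIA 16, the cultures with the lowest neuronal sums (1127 and 1617). Both were also lowest of their group in CONTROL-TIA 5, which had its lowest sum (2828). In CONTROL-VEH, Neto1 was lowest in culture 1, with the lowest sum (2789). Neto2 was lowest there in culture 4 (56.6 FPKM), with the highest sum (3284). Grik2 was lowest of its group in CONTROL-VEH 2 (18.6 FPKM, sum 2842), CONTROL-TIA 5 (19.7, sum 2828) and OGD-VEH 10 (13.3, sum 1818.5). In OGD-TIA it was lowest in culture 15 (17.5 FPKM), with the highest sum of that group (2779). OGD-TIA 13, 14 and 15 had sums of 2694, 2703 and 2779, with Neto1 at 13.4, 13.02 and 13.1 FPKM. The part of neuronal or glial cell content in any member's difference was not tested.

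The members can be set beside the other ionotropic glutamate receptors in the same comparison. In OGD-VEH against CONTROL-VEH, 1 of 4 AMPA receptor subunits was called, Gria1, and 2 of the 5 NMDA receptor subunits above the filter, Grin1 and Grin2b, all lower, beside 4.08% of all genes called. These 3 are named because of their calls. Of the 2 delta receptor subunits 0 were called. The median log2 difference was -0.46 for AMPA, -1.04 for NMDA and -0.72 for delta subunits, beside -0.19 for the kainate and Neto genes and 0.10 for all genes. In OGD-TIA against CONTROL-TIA the medians were -0.32, -0.37, -0.63 and -0.23, with 0 called in any family. Whether the families differ was not tested.

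**Figure D5:**
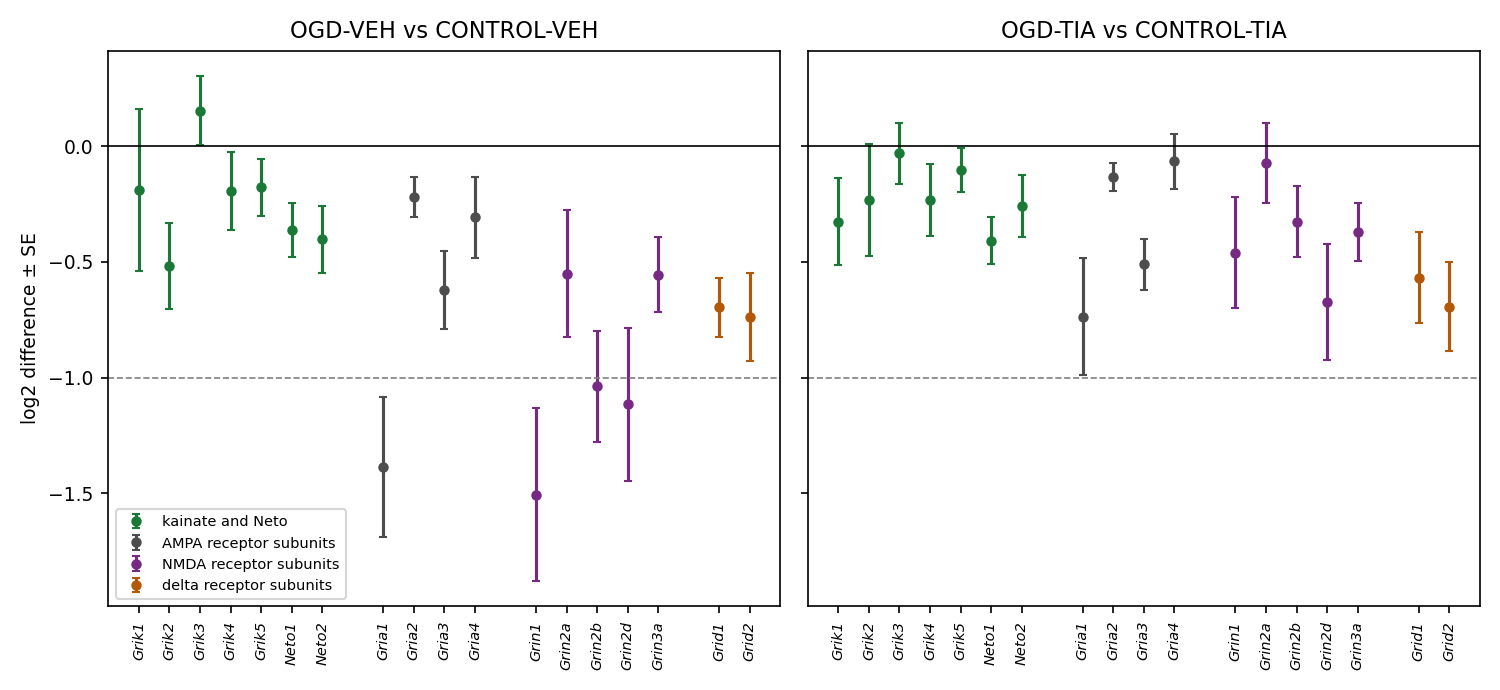
Log2 difference ± SE (limma; 4 cultures per group) of the kainate and Neto genes and of the AMPA, NMDA and delta receptor subunits above the filter, for OGD with vehicle (left) and with tianeptine (right); the dashed line marks -1. In the left panel the kainate and Neto genes lie between -0.52 and 0.15, and 4 AMPA or NMDA subunits lie below -1.

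Partners and regulators of kainate receptors were followed as a list of 32 genes, of which 30 were tested. In OGD-VEH against CONTROL-VEH 1 of the 30 was called, beside 4.08% of all genes. At an unadjusted p below 0.05 3 were higher and 13 lower, beside 20.2% and 14.8% of all genes, with a median log2 difference of -0.30. Senp1, a SUMO protease that removes SUMO from GluK2 among other targets, rose from 7.17 ± 0.371 to 14.9 ± 2.16 FPKM (log2 difference 1.04, SE 0.14, padj = 0.0267, limma), with separate groups. Map3k11, the mixed-lineage kinase that is tethered to GluK2 through PSD-95, stood at 3.33 ± 0.177 and 6.05 ± 0.868 (log2 difference 0.83, padj = 0.0335, limma). Mapk10, the JNK isoform of neurons at the end of that kinase module, was 46.5 ± 3.54 and 30.9 ± 6.40 (log2 difference -0.60, padj = 0.0477, limma). Prkcb, a protein kinase C, was 171 ± 13.01 and 118 ± 22.04 (log2 difference -0.55, padj = 0.0477, limma). The last 3 did not reach the fold threshold. In the other comparisons and in the interaction 0 of the 30 were called, and 2 were higher and 8 lower at an unadjusted p below 0.05 in OGD-TIA against CONTROL-TIA, beside 11.6% and 7.91% of all genes.

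For each member, the genes most alike over the 16 cultures were taken by Pearson's r of log2(FPKM + 0.1) among the 12511 protein-coding genes averaging 1 FPKM or more. The cultures share their group structure, so these values describe likeness and were not tested. Neto2 had the closest match, with Zbtb18 at r = 0.98, Avpr1a at 0.97 and Neurod1 at 0.97. Neto1 was most like Eda (0.92), Saxo2 (0.91) and Ppm1e (0.91), and Grik1 most like Baalc (0.93), Dgkb (0.89) and Entpd2 (0.88). Grik3 was most like Uevld (0.91), Isoc1 (0.90) and Brinp2 (0.90). The closest genes to Grik2 (Kif1b, 0.84), Grik4 (Rita1, 0.84) and Grik5 (Rgs11, 0.85) were less alike.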

How the data were processed

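RNA of 16 cultures was sequenced from stranded mRNA libraries as 50-base single-end reads, and the submitters' processing notes name FastQC, STAR and DESeq2 and the GRCm38 build. The authors deposited isoform FPKM values scaled by TMM, a between-library scaling. The study's methods name eXpress for estimating isoform levels, without a version. The table has 135276 lines, of which 74 carry no identifier and were left out. Isoforms were joined to GENCODE M21 (99.89% matched), which supplied gene positions, types and lengths. FPKM values were summed per gene, and log2(FPKM + 0.1) was compared with limma 3.58.1 in R 4.3.3 (trended empirical Bayes), since FPKM are not counts and the study's DESeq2 test could not be used. A fold change on this scale understates the change of low genes. Genes needed a mean of 0.5 FPKM over the cultures of the fit. P-values were adjusted over all genes tested (Benjamini-Hochberg), and calls needed padj of at most 0.05 together with a log2 difference of 1 or more either way; for the interaction, fitted on all 16 cultures, padj alone was used. The fit of OGD-VEH against CONTROL-VEH was tried on simulated data in which every culture had the spread of CONTROL-VEH. It recovered 74.5 to 78.5% of 200 changed genes, with at most 5 false calls in a draw. The planted changes were larger than any member difference, and the spread within OGD-VEH was not simulated. Values, promoters and likeness were tabulated in Python 3.11.15. The labels give 18 to 23 M aligned reads per sample. Depth as estimated here from the smallest steps of the values was 20.05 to 25.6 M reads per culture, partly above that range, at which 1 read on a 1 kb transcript is 0.0391 to 0.0499 FPKM. P-values measure the spread between the 4 cultures of a group.

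The members and lists were chosen with earlier results of these data known. The named genes are the 7 members, the partners that were called or had the 2 smallest p-values in each direction, the 3 most alike genes and the markers. Of the 32 partners, Klhl17 was not matched by symbol and C1ql2 was below the filter. Promoter windows came from RefSeq for 5 of the 7 members. Tried as alternatives were the pseudocount (1 and 0.01), the filter (none and 2 FPKM), median-ratio scaling, array weights, robust variance, isoforms weighted by length, each culture left out, and all 16 cultures in one fit.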

Additional observations from a re-analysis of the deposited data

Results flagged for a closer look

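Grik3 in OGD-TIA replicate 16 was 31.1 FPKM, while the other 3 cultures of the group were between 23.9 and 24.8. Its gap to the nearest culture was 0.880 of the group's range, above Dixon's 95% critical value for 4 samples. The 7 members gave 28 groups of 4 to examine, 1 of which was picked out, and chance picks out about 1 in 20 of independent groups. Grik3 was also highest of its group in CONTROL-VEH 4 (32.3 FPKM), CONTROL-TIA 8 (31.6) and OGD-VEH 12 (32.6). The high value was therefore not confined to OGD-TIA 16, and the comparison with chance takes no account of this. OGD-TIA 16 also had 64.5 FPKM of Gfap and the lowest neuronal marker sum of its group. The part of either in the Grik3 value was not tested.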

How the results depend on the processing

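In the OGD-VEH against CONTROL-VEH comparison, 118 of the 126 member values recomputed under alternatives kept their direction and their side of padj = 0.05 (limma), and 7 moved to padj of 0.05 or less: Grik2 (-0.58), Neto1 (-0.28) and Neto2 (-0.44) with array weights, Grik2 (-0.42) and Neto1 (-0.36) with isoforms weighted by length, and Neto1 (-0.36) and Neto2 (-0.40) with all 16 cultures in one fit. None of the 7 members reached the fold threshold. The number of genes called in that comparison, 668, depended on the setting far more: it was 36 with no filter, 1931 with array weights, 1123 with length weighting, 1415 with all 16 cultures, 2 without the culture of highest Gfap in each group, and 1 to 2188 with single cultures left out, 2188 without OGD-VEH 9 and at most 71 without any other. In OGD-TIA against CONTROL-TIA, with 0 called, it was 7, 80, 72 and 1 under the first 4 of these, and 0 to 17 with single cultures left out (17 without OGD-TIA 16, 2 without CONTROL-TIA 7). It was 4 with no filter for CONTROL-TIA against CONTROL-VEH. For OGD-TIA against OGD-VEH it was 4 with no filter, 407 with array weights and 0 to 2 with single cultures left out (2 without OGD-VEH 9, 1 without OGD-VEH 12). For the interaction it was 3 with no filter and 0 to 1 (1 without CONTROL-VEH 3). The 75 isoforms called became 47 at a minimum of 2 FPKM, 725 with array weights, 1495 with all 16 cultures and 66 to 1730 with single cultures left out, 1730 without OGD-VEH 9. The cause was not tested. The alternatives for isoforms and for the cultures of highest Gfap were chosen after seeing the data.

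Changes of sign concerned uncalled values, not all of them near 0. The main value was -0.23 for Grik2 in OGD-TIA against CONTROL-TIA and -0.19 for Grik1 in OGD-VEH against CONTROL-VEH. In CONTROL-TIA against CONTROL-VEH, Grik1 was -0.0021 at a pseudocount of 1 and -0.080 with length weighting, Grik2 -0.036 with length weighting, Neto1 0.0024 with median-ratio scaling and 0.034 with array weights, and without the cultures of highest Gfap Grik2 was -0.087 and Neto2 -0.0095. Without those cultures Grik2 was 0.035 in OGD-TIA against CONTROL-TIA and Grik4 -0.037 in OGD-TIA against OGD-VEH, where Neto1 was 0.0013 with median-ratio scaling. In the interaction Grik4 was 0.0034 with median-ratio scaling and 0.078 with length weighting, and Grik1 0.0023 with length weighting. With single cultures left out, Grik1 ranged from -0.39 to 0.13 in OGD-VEH against CONTROL-VEH and Grik3 from -0.12 to 0.058 in OGD-TIA against CONTROL-TIA. In CONTROL-TIA against CONTROL-VEH, Grik1 ranged from -0.18 to 0.32, Grik2 from -0.16 to 0.17, Grik3 from -0.088 to 0.098 and Neto1 from -0.065 to 0.049. In OGD-TIA against OGD-VEH, Grik1 ranged from -0.29 to 0.068, Grik4 from -0.089 to 0.14 and Neto1 from -0.098 to 0.0064. In the interaction, Grik1 ranged from -0.45 to 0.059, Grik4 from -0.15 to 0.085, Grik5 from -0.0084 to 0.15 and Neto1 from -0.097 to 0.018. No paired analysis was made, because the labels give no shared replicate number, litter or preparation day. Some values did go together by position within a group. Grik3 was 25.1, 25.7, 23.1 and 32.3 FPKM in CONTROL-VEH 1 to 4. It was 25.1, 26.1, 23.2 and 31.6 in CONTROL-TIA 5 to 8. In OGD-VEH it was 24.0, 30.2, 31.3 and 32.6, and in OGD-TIA 23.9, 24.8, 24.0 and 31.1. Whether cultures at 1 position share a preparation was not tested, and the unpaired standard errors take no account of it. Depth limits only low isoforms here, as each member gene was well above 1 read per kb.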
